A study of Mus musculus with 9 samples.

Results

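AML12 cells, a mouse hepatocyte line, were compared between untreated controls and cells that received the peptide Ang(1-7) before a fatty acid load. The comparison used 6 of the 9 libraries of the study, chosen by their labels: controls 1 to 3, with no treatment, and Ang(1-7) 1 to 3, given 100 nM Ang(1-7) for 30 min and then PA at 0.2 mM with OA at 0.4 mM (abbreviations taken to mean palmitic acid and oleic acid) over 24 h. The other 3 libraries, called PA/OA, came from cells given the same fatty acids without the peptide. Neither a group given Ang(1-7) alone nor one given a carrier is among the samples, so in the comparison with control the peptide, the fatty acids and any carrier cannot be told apart. All cells came from 1 line, no label states that a group's 3 samples were separate cultures, so the p-values rest on the spread among these samples alone, and that spread may be purely technical. The table of this pair held counts for 6828 RefSeq transcripts of 6141 genes, the lowest with a mean of 59.5 counts, so genes of low level are hardly covered. Of these genes, 6134 were tested.

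Ang(1-7) is a short peptide made from angiotensin I or II, and it acts through the receptor MAS1 in opposition to angiotensin II. In hepatocytes, palmitate and oleate are oxidised, esterified and stored in lipid droplets, and fatty acids switch on genes through PPAR receptors. Palmitate is also known for raising chemokine and acute phase genes, many of which have NF-kB sites in their promoters. The transcripts of the receptor Mas1, of the droplet coat gene Plin2 and of Pdk4 were not listed in the table of this pair.

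Library totals ran from 24588312 to 28552995 counts. The library Ang(1-7) 2 differed from the other 5: its correlation with them over log2 CPM was 0.939 to 0.956, against 0.977 or more among the others, and it lay outside the range of the other 5 in 66.4% of genes, against 22.3% to 33.2% for each other library. CPM are counts scaled to the library total (the usual CPM unit), with trimmed mean scaling between libraries. Chi-square per degree of freedom was 250.4 and 235 in its pairs with Ang(1-7) 1 and 3, and 19.9 to 28.02 in the other pairs within a group. Ang(1-7) 2 and 3 also held transcripts of neurons and glia. Gfap, the astrocyte filament gene, had 0 counts in each control and then 12, 888 and 378 in Ang(1-7) 1 to 3, at least 436-fold higher with a floor of 3 counts over the control group. The neurofilament gene Nefl had 0, 4 and 0 counts in controls 1 to 3 against 0, 923 and 477 in Ang(1-7) 1 to 3, and Nefm had 0 in 4 libraries, 301 in Ang(1-7) 2 and 154 in Ang(1-7) 3. The control means of Gfap, Nefl and Nefm lay under the lowest mean of any listed transcript (59.5 counts). They could be listed only through the treated libraries and had to be higher, so their values and the fold are a description. Mbp, a myelin gene, was at 3108 to 3831 counts in all 6. These are the 4 of 14 listed markers, which summed to 184 and 178 CPM in Ang(1-7) 2 and 3 (without the trimmed mean scaling) and to 117 to 140 in the other libraries. Counts of called genes are therefore given with and without Ang(1-7) 2. Beyond the 15 genes called with all 6 libraries, each gene said below to rise or fall passed edgeR's test without Ang(1-7) 2 but not with all 6, where its adjusted p was 0.0514 or more. Of the 14 hepatocyte markers 4 were listed, and Alb, the albumin gene that defines hepatocytes, had 122 to 550 counts, while the transferrin gene Trf had 11934 to 24120. The biliary keratin genes Krt7 and Krt19 had 21887 to 30645 and 9729 to 27253 counts. Of the other marker lists, the table listed 0 of 4 for blood, 0 of 7 for endothelial cells, 1 of 9 for stellate cells and fibroblasts (Des, with 83, 155 and 78 counts in controls 1 to 3 against 176, 339 and 238 in Ang(1-7) 1 to 3) and 2 of 7 for macrophages (Cd68 with 39 to 159 counts and Lyz2 with 26 to 180). The table of Ang(1-7) against PA/OA reached lower levels and listed more of these markers, with counts in Ang(1-7) 1 to 3 of 0, 32 and 16 for the globin gene Hba-a1, 0, 83 and 48 for Hbb-bs, 36, 40 and 30 for the collagen gene Col1a1, 0, 28 and 30 for Col1a2 and 0, 71 and 31 for Col3a1. PA/OA 1 to 3 had 0 counts of these, apart from 4 for Hba-a1 and 15 for Col1a1 in PA/OA 2. The neuronal genes Tubb3 (0, 207 and 110) and Stmn2 (0, 131 and 52) had the same order in Ang(1-7) 1 to 3 and 0 in each PA/OA library. The lowest mean listed there was 5.17 counts, above the PA/OA mean of each gene named here from Hba-a1 to Stmn2. These too could be listed only through the peptide libraries and had to be higher in them. The part of RNA from other cells in the results was not tested.

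Transcripts of several chemokines, of complement C3, of the retinal dehydrogenase Aldh1a1 and of apolipoprotein B were higher in cells given Ang(1-7) and fatty acids than in control cells. With all 6 libraries, the quasi-likelihood test of edgeR, adjusted by Benjamini-Hochberg, called 15 of 6134 genes at an adjusted p under 0.05, which is 0.245% of genes, and all 15 were higher. Those described here are Cxcl5, Ccl7, C3, Cxcl3, Aldh1a1, S100a11, Nt5e, Ms4a4d, Apob, Tnip3, Ptgs2, Ccl2, Slfn2 and Hpx. The 3 libraries of each group did not overlap for any of the 15, and over all genes tested they did not overlap in 26.5% (13.2% higher and 13.3% lower). An unadjusted p under 0.05 was found for 526 higher and 389 lower genes. Without Ang(1-7) 2 the same test called 320 higher (5.22%) and 304 lower genes (4.96%), among them all 15, and their median log2 changes were 0.56 and −0.37. Of these, 63 rose and 6 fell at least 2-fold. Both include genes with a group mean under the lowest listed mean, such as Saa3, Lcn2, Phka1 and Gfap among the 63 and Nfkbil1 among the 6. Such genes could be listed only through the other group, so these numbers are a description and not to be weighed against each other. The direction of Ang(1-7) 2 from the control mean was the same for 503 of the 624, and its exclusion lowered the estimated biological coefficient of variation from 30.7% to 21.2%. With all 6 libraries, limma-voom with quality weights, which gave Ang(1-7) 2 a weight of 0.133 and the others 1.10 to 2.22, called 608 genes (542 of the 624), and DESeq2 called 244. With Ang(1-7) 1 as the sole peptide library, assumed to vary like the controls, 229 genes were called, again with all 15 among them. Of the 624 genes, 158 were called in each of 5 fits that left out a further library. Below, a gene called without Ang(1-7) 2 for which no such fit is mentioned was called in all 5, and for the others the fit with the highest adjusted p is given. Counts of list members called without Ang(1-7) 2 are to be set beside 5.22% higher and 4.96% lower over all genes tested.

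**Figure D1:**
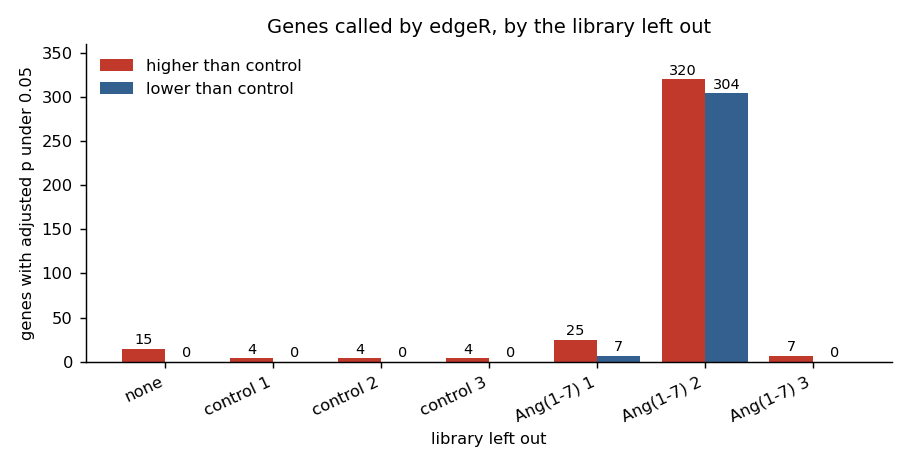
Number of genes with an edgeR adjusted p under 0.05 (vertical axis), higher (red) and lower (blue) than control, with no library left out and with each of the 6 left out in turn. Leaving out Ang(1-7) 2 gave 320 higher and 304 lower genes, and leaving out any other library gave between 4 and 32 in all.

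Leaving out a control lowered the count of 15 to 4, and leaving out Ang(1-7) 3 lowered it to 7. Cxcl5, Cxcl3, C3 and Aldh1a1 kept their call whichever of the 6 libraries was left out. Apob, Ms4a4d and Ptgs2 were not called without any 1 of the controls (highest adjusted p 0.0935, 0.09999 and 0.115). Ccl2, Ccl7, Nt5e, S100a11 and Slfn2 were not called without any control or without Ang(1-7) 3 (highest 0.165, 0.203, 0.382, 0.337 and 0.139). Hpx and Tnip3 were called only without Ang(1-7) 2 among these 6 fits (highest 0.349 and 0.337). Without Ang(1-7) 2 the log2 changes were 2.86 for Cxcl5, 2.33 for C3, 2.30 for Ccl7, 2.21 for Cxcl3, 1.38 for Aldh1a1, 1.31 for S100a11, 1.20 for Ms4a4d and 1.18 for Nt5e, and they lay between 0.77 (Hpx) and 1.09 (Tnip3) for Apob, Ptgs2, Ccl2 and Slfn2.

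**Figure D2:**
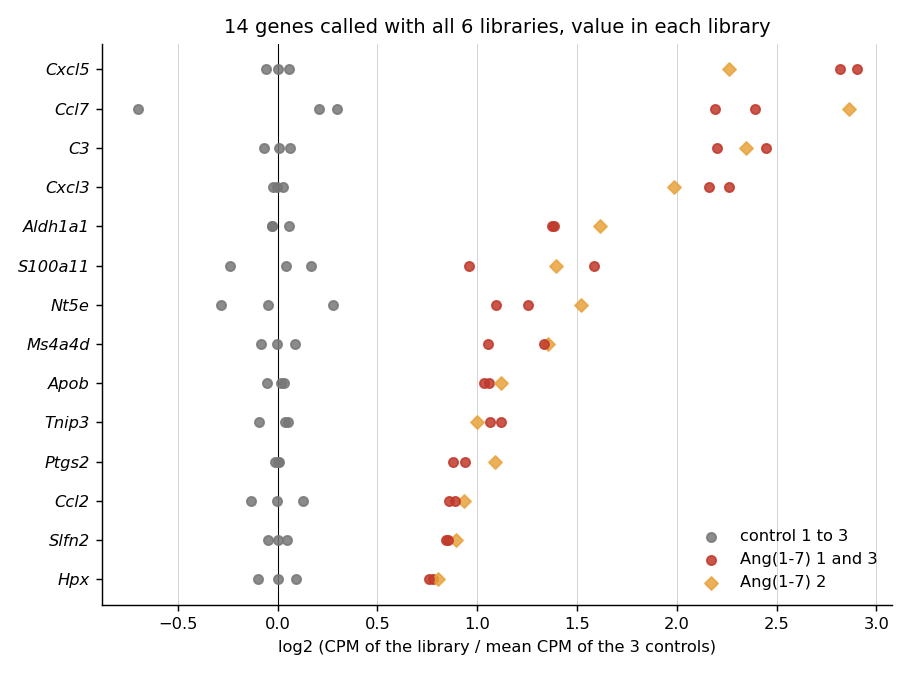
Log2 of the CPM of each library over the mean CPM of the 3 controls (horizontal axis) for 14 of the 15 genes called with all 6 libraries; grey points are the controls, red points Ang(1-7) 1 and 3, and orange diamonds Ang(1-7) 2. The 3 peptide libraries lie to the right of the 3 controls for every gene shown, and for Cxcl5 Ang(1-7) 2 is the lowest of the 3.

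The neutrophil chemokine Cxcl5 had the largest log2 change of the 15 genes. Cxcl5, a ligand of the neutrophil receptor CXCR2, stood at 239.5, 249 and 229 CPM in controls 1 to 3 and at 1687, 1146 and 1786 in Ang(1-7) 1 to 3. The groups were far apart, and Ang(1-7) 2 was the lowest of the treated ones. The mean went from 239 ± 9.73 to 1540 ± 345 CPM (SD, n = 3 per group), a 6.44-fold difference, with a log2 change of 2.69 ± 0.17 (SE, edgeR adjusted p = 0.000608). In bulk RNA such a change cannot be told apart from a change in which cells were present. Cxcl3, of the same receptor's ligands, was at 18.3, 17.9 and 17.7 CPM in the controls and 80.5, 71.4 and 86.4 in the treated libraries, a log2 change of 2.14 ± 0.15 (adjusted p = 0.000652). Cxcl1, another CXCR2 ligand, had 167, 152 and 139.7 CPM in the controls and 506, 275 and 536 in Ang(1-7) 1 to 3. Ang(1-7) 2 lay between the groups for Cxcl1, and the gene was called without that library (log2 change 1.77 ± 0.08, adjusted p = 1.28e-10) but not with it (1.52 ± 0.23, adjusted p = 0.0514).

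NF-kB sites are a known feature of chemokine promoters. Stretches upstream of Cxcl1, Cxcl3, Slfn2 and Tnip3 are shown, all of which hold a match to such a site. Slfn2 and Tnip3 are not chemokine genes, and windows of called genes without a match are not shown. The windows run from 250 bases before to 50 after the gene start, with RefSeq sequence of build GRCm38.p6, plus strand, 5′ to 3′. Capitals mark matches on either strand to GGGNNTTTCC (long form) or GGGNNTTCC (short form), 2 spellings of an NF-kB site.

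Cxcl1, chr5:90890995-90891294: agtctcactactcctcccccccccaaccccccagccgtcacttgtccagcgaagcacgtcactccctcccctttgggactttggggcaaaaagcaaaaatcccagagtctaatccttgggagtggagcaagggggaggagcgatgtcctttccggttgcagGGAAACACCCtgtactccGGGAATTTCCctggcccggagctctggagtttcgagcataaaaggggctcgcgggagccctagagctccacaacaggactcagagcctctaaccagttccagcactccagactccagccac

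Cxcl3, chr5:90785851-90786150: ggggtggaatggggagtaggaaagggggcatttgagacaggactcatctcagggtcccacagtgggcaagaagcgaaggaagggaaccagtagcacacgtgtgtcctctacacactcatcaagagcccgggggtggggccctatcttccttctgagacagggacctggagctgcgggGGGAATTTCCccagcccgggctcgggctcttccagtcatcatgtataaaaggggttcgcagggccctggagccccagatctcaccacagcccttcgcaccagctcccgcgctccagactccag

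Slfn2, chr11:83064862-83065161: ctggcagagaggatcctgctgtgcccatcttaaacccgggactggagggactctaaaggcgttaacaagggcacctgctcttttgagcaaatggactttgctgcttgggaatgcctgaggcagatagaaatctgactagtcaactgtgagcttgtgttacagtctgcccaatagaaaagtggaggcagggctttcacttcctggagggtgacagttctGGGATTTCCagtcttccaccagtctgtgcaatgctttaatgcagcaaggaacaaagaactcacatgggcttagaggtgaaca

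Tnip3, chr6:65590148-65590447: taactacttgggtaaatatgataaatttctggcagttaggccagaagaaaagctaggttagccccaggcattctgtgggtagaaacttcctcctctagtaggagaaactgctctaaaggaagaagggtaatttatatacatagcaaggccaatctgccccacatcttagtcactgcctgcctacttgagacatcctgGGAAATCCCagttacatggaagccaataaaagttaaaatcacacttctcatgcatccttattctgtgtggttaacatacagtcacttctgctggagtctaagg

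The long form was found in the windows of Cxcl1 and Cxcl3 and the short form in those of Slfn2 and Tnip3. Of the 15 genes called with all 6 libraries, 11 had a window in the RefSeq table, and 3 of the 11 held either form, against 10.2% of 4657 tested genes with a window and 7.00% of all 32851 windows. A match is a description of the letters and not a measured site.

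Monocyte chemokines and other inflammatory genes followed. Ccl2, which attracts monocytes through CCR2, had 1054, 879 and 965 CPM in the controls and 1754, 1846 and 1787 in the treated libraries, with a log2 change of 0.89 ± 0.10 (adjusted p = 0.00963). Ccl7, a related ligand, had 10.2, 10.8 and 5.42 against 40.2, 64.0 and 46.3 CPM, a log2 change of 2.51 ± 0.31 (adjusted p = 0.0226). Every treated library exceeded every control for both ligands, and Ang(1-7) 2 was the highest library for each. Ptgs2, the inducible cyclooxygenase of prostaglandin synthesis, had 277, 278 and 274 CPM in the controls and 508, 588 and 530.3 in the treated libraries (0.97 ± 0.10, adjusted p = 0.00627). Tnip3, a binding partner of the NF-kB inhibitor A20, went from 24.8 ± 1.32 to 51.8 ± 2.17 CPM, 2.09-fold. Transcripts of Rela (0.36 ± 0.25), Nfkbia (0.26 ± 0.13) and Tnfaip3 (0.36 ± 0.16), the NF-kB subunit p65, its inhibitor and A20, did not pass the test with all 6 libraries.

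The acute phase genes Saa3 and Lcn2 had few counts in control cells. Saa3, serum amyloid A3, had 26, 4 and 46 counts in controls 1 to 3 against 571, 391 and 554 in Ang(1-7) 1 to 3, and Lcn2, which encodes the siderophore-binding lipocalin 2, had 6, 0 and 1 against 89, 279 and 197. Ang(1-7) 2 was the lowest treated library for Saa3 and the highest for Lcn2. Both were called without Ang(1-7) 2, with log2 changes of 4.49 ± 0.52 (adjusted p = 3.93e-05) and 5.88 ± 0.85 (adjusted p = 0.000257), and not with it (adjusted p = 0.0559 and 0.0514). Their control means lay under the lowest mean of any listed transcript (59.5 counts), so both could be listed only through the treated libraries and had to differ, and their values are a description. With so few control counts the size of the Lcn2 change is uncertain. Hp, haptoglobin, went from 4.10 ± 1.53 to 10.7 ± 1.92 CPM and was called without Ang(1-7) 2 alone (1.49 ± 0.37, adjusted p = 0.0162), but not without Ang(1-7) 3 as well (adjusted p = 0.256).

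The list of chemokines, cytokines, acute phase proteins and other NF-kB targets had 27 measured genes, of which 6 rose and 0 fell with all 6 libraries, and 10 rose and 0 fell without Ang(1-7) 2, Saa3 and Lcn2 among the 10. The median log2 change of the list was 0.89 and 0.91, beside 0.02 and 0.01 over all genes tested. In 18 of the 27 the treated libraries all exceeded the controls, beside 13.2% of all genes tested. The list was chosen with the rise of several of its members already known. With Ang(1-7) 1 as the sole peptide library 9 of its genes were called. Genes of the list that did not pass included Vcam1, an adhesion molecule (485, 423 and 446 against 436, 632 and 487 CPM), and the mitochondrial superoxide dismutase gene Sod2 (log2 change 0.05 ± 0.10). Interferon-stimulated and antigen presentation genes were 6 measured, of which B2m, the light chain of class I molecules, rose without Ang(1-7) 2 (0.38 ± 0.08, adjusted p = 0.00414, but 0.119 without Ang(1-7) 3 too). B2m was at 401 to 458 CPM in the controls, at 517 and 585 in Ang(1-7) 1 and 3, and at 1167 in Ang(1-7) 2.

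The complement gene C3 and the plasma protein gene Hpx rose with all 6 libraries. C3, the central complement component, had 43.6, 45.9 and 47.7 CPM in the controls and 210.3, 233 and 249.7 in the treated libraries, a 5.05-fold difference with narrow spread (log2 change 2.34 ± 0.12, adjusted p = 0.000198). Of 6 measured complement genes, C3 rose with all 6 libraries, and C3, the protease gene C1ra (0.74 ± 0.16) and C2 (0.62 ± 0.16) rose without Ang(1-7) 2, with 0 lower. C1ra was not called when Ang(1-7) 3 was also left out (adjusted p = 0.212), nor C2 when Ang(1-7) 1 was (0.117). Hpx, the heme carrier hemopexin, had 78.8, 83.8 and 73.6 CPM in the controls and 135, 137 and 133 in the treated libraries, with no overlap and with a log2 change of 0.78 ± 0.11 (adjusted p = 0.0429). Of 16 genes of iron and heme handling, Hpx rose with all 6 libraries, and Hpx, the iron carrier gene Trf (0.38 ± 0.08) and the ferroxidase gene Cp (1.38 ± 0.35) rose without Ang(1-7) 2. Trf and Cp were not called when Ang(1-7) 3 was left out too (adjusted p = 0.0765 and 0.284). The stores and uptake genes Ftl1 (0.02 ± 0.04) and Tfrc (−0.16 ± 0.09), for ferritin light chain and the transferrin receptor, did not pass without Ang(1-7) 2.

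Of the enzymes of retinoid metabolism, Aldh1a1 rose with all 6 libraries. Aldh1a1, which oxidises retinal to retinoic acid, had 521, 492 and 492 CPM in the controls and 1303, 1538 and 1311 in the treated libraries (log2 change 1.46 ± 0.10, adjusted p = 0.000652). Its near copy Aldh1a7 went from 9.33, 5.90 and 6.76 to 24.4, 17.6 and 19.7 CPM, with groups that did not overlap (1.49 ± 0.27, adjusted p = 0.0894, and 1.59 ± 0.27, adjusted p = 0.000934 without Ang(1-7) 2). Reads of the 2 genes could be divided between them by the counting, so the smaller value is uncertain. Rdh10, which makes retinal from retinol, was at 552, 571 and 588 against 833, 796 and 834 CPM and was called without Ang(1-7) 2 (0.55 ± 0.06, adjusted p = 3.29e-05). Of 18 measured genes of retinoid and xenobiotic metabolism, Aldh1a1, Aldh1a7, Rdh10 and the glucuronosyltransferase gene Ugt1a6a rose and the cytochrome P450 gene Cyp2s1 fell without Ang(1-7) 2, and 13 did not pass (median 0.17). Cyp2s1 was at 29.8, 34.2 and 30.4 CPM in the controls, at 15.9 and 20.04 in Ang(1-7) 1 and 3, and at 31.0 in Ang(1-7) 2. Ugt1a6a was not called when Ang(1-7) 3 was left out as well (adjusted p = 0.406), nor Cyp2s1 when Ang(1-7) 1 was (0.183).

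Genes of fatty acid use rose in part. Acot1, a cytosolic acyl-CoA thioesterase and PPAR-alpha target, had 146, 145 and 135 CPM in the controls and 261, 209.8 and 247 in the treated libraries. Ang(1-7) 2 was again the lowest of the treated ones, and the gene was called without it (0.84 ± 0.09, adjusted p = 9.17e-06) and not with it (0.75 ± 0.12, adjusted p = 0.0514). Its mitochondrial relative Acot2 (0.88 ± 0.19), the long-chain acyl-CoA dehydrogenase gene Acadl (0.59 ± 0.13) and the uncoupling protein gene Ucp2 (1.35 ± 0.35) also rose without Ang(1-7) 2. Acot2 and Ucp2 were not called when Ang(1-7) 3 was left out too (adjusted p = 0.231 and 0.501), nor Acadl when Ang(1-7) 1 was (0.209). These 4 were the called genes among 25 measured for fatty acid oxidation and PPAR-alpha targets, with 0 lower and a median log2 change of 0.16. Cpt1a, which admits fatty acids to mitochondria and was listed through 1 transcript, went from 1.26 ± 0.210 to 4.29 ± 1.37 CPM with groups that did not overlap and controls under the lowest listed mean, but did not pass (1.76 ± 0.48, adjusted p = 0.173, and 0.0877 without Ang(1-7) 2). Angptl4, an inhibitor of lipoprotein lipase, did not pass (0.26 ± 0.11, adjusted p = 0.325), nor did the dehydrogenase gene Hadha (−0.02 ± 0.13).

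Of 14 measured genes of lipid droplets and triglyceride storage, 0 rose and 0 fell in either fit, and the median log2 change was −0.03 with and −0.00237 without Ang(1-7) 2. Over all genes tested 0.245% were called with all 6 libraries and 10.2% without Ang(1-7) 2, so a count of 0 among 14 says little. Among the 14 were Plin3, a droplet coat gene (−0.08 ± 0.11), the droplet gene Hilpda (0.40 ± 0.22), and Dgat2 (0.17 ± 0.17), the last step of triglyceride synthesis. Of 17 genes of fatty acid synthesis, desaturation and activation, 2 fell and 0 rose without Ang(1-7) 2, beside 4.96% and 5.22% of all genes tested. They were the stearoyl-CoA desaturase genes Scd1 (−0.24 ± 0.07, adjusted p = 0.0246) and Scd2 (−0.19 ± 0.05, adjusted p = 0.0348). Scd1 was at 842, 943 and 869 CPM in the controls and 732, 909 and 765 in Ang(1-7) 1 to 3, so that Ang(1-7) 2 lay among the controls. Without Ang(1-7) 1 as well, neither was called (adjusted p = 0.188 and 0.336). Of 20 cholesterol genes, 1 rose and 1 fell without Ang(1-7) 2, beside 5.22% and 4.96% of all genes tested. They were the sterol carrier gene Stard4 (0.50 ± 0.12, but −0.0757 with curated transcripts alone) and Insig1, which holds back sterol synthesis (−0.32 ± 0.08). Stard4 was not called without Ang(1-7) 3 too (adjusted p = 0.142), nor Insig1 without Ang(1-7) 1 (0.153). The early sterol enzyme gene Hmgcs1 did not pass with all 6 libraries (0.43 ± 0.45) or without Ang(1-7) 2 (0.25 ± 0.50). Apob, the structural protein of very low density lipoprotein, was at 90.5, 96.1 and 94.95 CPM in the controls and 196, 204 and 192 in the treated libraries (1.07 ± 0.10, adjusted p = 0.00560). It was 1 of 3 measured lipoprotein genes. The others, Apoc2 and Lcat, did not pass with all 6 libraries (−0.36 ± 0.38 and 0.63 ± 0.49) or without Ang(1-7) 2 (0.000474 ± 0.16 and 0.43 ± 0.58).

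Several surface and signalling genes also rose. Slfn2, a schlafen family gene of immune cell quiescence, was at 228, 221 and 214 CPM in the controls and 397, 409.9 and 399 in the treated libraries (0.86 ± 0.09, adjusted p = 0.00793). Ms4a4d, a membrane-spanning 4-domain family gene, rose from 104 ± 6.14 to 247 ± 27.7 CPM (1.25 ± 0.12, adjusted p = 0.00564). Nt5e, the ectonucleotidase CD73 that makes adenosine, rose from 35.7 ± 7.01 to 88.0 ± 13.4 CPM (1.30 ± 0.19, adjusted p = 0.0459). Of 27 measured genes of the matrix, TGF-beta and YAP list, 1 rose with all 6 libraries, and 6 rose and 1 fell without Ang(1-7) 2 (median 0.16). In the latter fit the integrin genes Itga2 (0.52 ± 0.06) and Itgb1 (0.16 ± 0.05), the YAP targets Cyr61 (0.42 ± 0.06) and Ankrd1 (0.31 ± 0.05) and the laminin gene Lamc1 (0.31 ± 0.07) rose, and Vim fell (−0.32 ± 0.05). Itgb1 and Lamc1 were not called without Ang(1-7) 3 too (adjusted p = 0.256 and 0.124). Of 22 chaperone and unfolded protein response genes, Hsp90b1 (0.31 ± 0.05), Pdia3 (0.41 ± 0.08), Calr (0.21 ± 0.05) and Dnajc3 (0.35 ± 0.08) rose without Ang(1-7) 2, and the endoplasmic reticulum chaperone gene Hspa5 did not pass (0.23 ± 0.26). Calr and Dnajc3 were not called without Ang(1-7) 3 too (adjusted p = 0.140 and 0.0894). Hsp90b1 was higher in Ang(1-7) 2, at 4563 CPM, than in Ang(1-7) 1 and 3, at 3154 and 3330, and the controls lay between 2583 and 2657. Of 22 immediate early genes, Ier3 (0.62 ± 0.07), Fosl1 (0.58 ± 0.13), Fosl2 (0.59 ± 0.11) and Klf6 (0.28 ± 0.06) rose and Junb (−0.27 ± 0.07) fell without Ang(1-7) 2. Fosl1, Klf6 and Junb were not called without Ang(1-7) 3 too (adjusted p = 0.211, 0.0859 and 0.246). Of 22 integrated stress response genes 0 rose and 2 fell without Ang(1-7) 2, beside 5.22% and 4.96% of all genes tested. They were the serine synthesis gene Phgdh (−0.37 ± 0.06) and the translation repressor gene Eif4ebp1 (−0.29 ± 0.08, not called without Ang(1-7) 3 too). Ddit3, the stress factor CHOP, did not pass (0.09 ± 0.28).

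**Figure D3:**
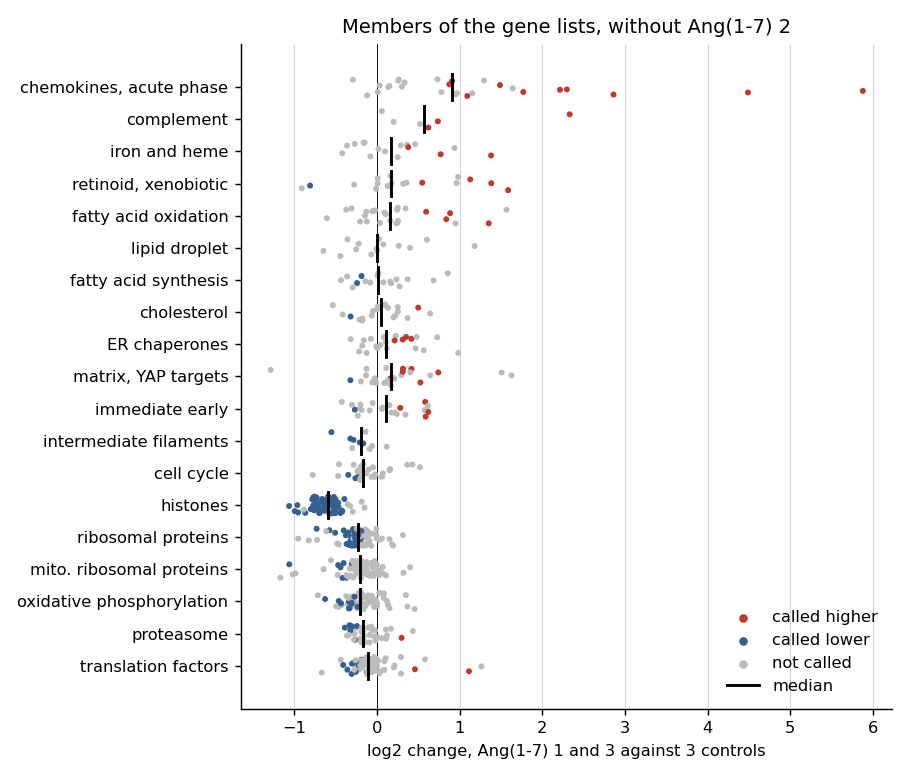
Log2 change of each measured member (points) of 19 gene lists, from the edgeR fit of Ang(1-7) 1 and 3 against the 3 controls; red and blue points passed an adjusted p of 0.05 and black bars are list medians. Called members of the chemokine list lie to the right, up to 5.88 for Lcn2, and the histone members all lie left of 0.

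Some genes of low level in the controls and outside any list had large log2 changes without Ang(1-7) 2. Their control means lay under the lowest mean of any listed transcript (59.5 counts), so they could be listed only if they were higher in the treated libraries, and their values and p-values are given as a description. Phka1, a phosphorylase kinase subunit, had 12, 19 and 10 counts in controls 1 to 3 against 131, 128 and 98 in Ang(1-7) 1 to 3 (log2 change 3.09 ± 0.60, adjusted p = 0.00292). Fam78b had 15, 15 and 23 against 104, 199 and 103 counts (2.57 ± 0.58, adjusted p = 0.00830). Epb41l4a went from 1.05 ± 0.589 to 5.23 ± 1.16 CPM (2.12 ± 0.60 without Ang(1-7) 2) and Cyp21a1, a steroid hydroxylase gene, from 1.53 ± 0.755 to 6.47 ± 0.825 (2.09 ± 0.53). In these 4 the 3 treated libraries lay together above the controls. Tspyl4 was different, with 14, 28 and 13 counts in controls 1 to 3 against 36, 467 and 261 in Ang(1-7) 1 to 3, highest in the libraries where Gfap and Nefl were highest. The part of cells or RNA with neural markers in the Tspyl4 value was not tested. Phka1 and Fam78b were called in 4 and 3 of the 5 fits that left out a further library, and Epb41l4a and Cyp21a1 in 1 and 2. Their highest adjusted p was 0.0565 for Phka1 and 0.187 for Epb41l4a without Ang(1-7) 1, and 0.0981 for Fam78b and 0.224 for Cyp21a1 without Ang(1-7) 3. Tspyl4 reached 0.744 without Ang(1-7) 3.

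Replication-dependent histone genes, which supply the histones of S phase, made up the largest listed group among the genes that fell. Their transcripts carry a conserved stem-loop in place of a poly(A) tail, and the labels give total RNA as the molecule. That label alone does not say whether RNA with a poly(A) tail was selected. All 64 measured genes had a negative log2 change without Ang(1-7) 2, 56 of them were called lower and 0 higher, and the median was −0.59 beside 0.01 over all genes. With all 6 libraries 0 passed edgeR's test, the median was −0.64, and DESeq2 called 35. In 45 of the 64 all treated libraries lay below all controls, beside 13.3% of all genes tested. The count was 41 with Ang(1-7) 1 as the sole peptide library and 46 to 59 without Ang(1-7) 2 and 1 control or Ang(1-7) 1.

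Summed over genes, the 13 measured H4 genes had 8687, 7052 and 8464 CPM in the controls and 5578, 4478 and 4730 in Ang(1-7) 1 to 3. The 16 H2A genes had 4368, 4129 and 4171 against 2886, 2661 and 2438 CPM. For both classes Ang(1-7) 2 lay with the other treated libraries, and no treated library reached the controls. Without Ang(1-7) 2 the sums fell by 31.1% for the linker histone H1, by 37.0% for H2A, by 28.9% for H2B, by 35.6% for H3 and by 36.1% for H4. Single genes were more scattered: Hist1h3e was at 948, 804 and 808 CPM in the controls and at 565, 856 and 499 in Ang(1-7) 1 to 3, with Ang(1-7) 2 among the controls. Hist2h2aa1, an H2A gene, was at 110.3, 92.3 and 131 against 62.0, 61.9 and 49.7 CPM (−0.995 ± 0.15, adjusted p = 0.000314 without Ang(1-7) 2). Hist1h4k fell by 0.78 ± 0.09, Hist1h2bq by 0.96 ± 0.13 and Hist1h2ao by 0.95 ± 0.20 on the log2 scale in the same fit, and Hist1h2ao was not called without Ang(1-7) 3 too (adjusted p = 0.109). Many of these genes are near copies of one another, so reads may be shared among them and the class sums do not depend on how they were shared within a class.

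**Figure D4:**
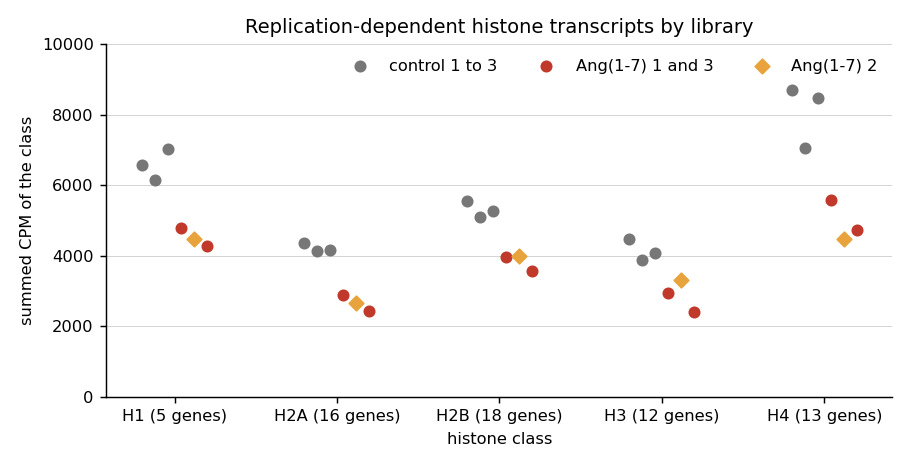
Summed CPM of the measured genes of each histone class (vertical axis) in each library; grey points are the controls, red points Ang(1-7) 1 and 3, and orange diamonds Ang(1-7) 2. For H4 the controls lie between 7052 and 8687 and the treated libraries between 4478 and 5578.

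The stem-loop that sets these transcripts apart is shown in the form found most often, with capitals over its whole length.

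Histone stem-loop: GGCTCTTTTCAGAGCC

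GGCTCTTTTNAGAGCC, searched on the sense strand of GENCODE M21 transcripts, was found in 31 of the 64 histone genes and in 0 of 5847 other tested genes with a transcript. The form printed was in 25 of the 31, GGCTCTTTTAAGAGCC in 5 and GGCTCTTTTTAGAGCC in 1. In the matched transcripts 3 (Hist1h2ap) to 4884 bases (Hist1h1d) followed the stem-loop, so not every annotated form ends near it. Of the 31 genes with these letters 25 were called lower without Ang(1-7) 2, at a median log2 change of −0.56. Among the 33 without them 31 were called lower, at a median of −0.63. Of 29 measured cell cycle genes, 3 fell and 0 rose without Ang(1-7) 2, beside 4.96% and 5.22% of all genes tested, and the median was −0.17. They were the mitotic and replication genes Cdc20 (−0.35 ± 0.08), Cdk1 (−0.26 ± 0.07) and Mcm2 (−0.23 ± 0.06). Cdc20 and Cdk1 were not called without Ang(1-7) 3 too (adjusted p = 0.150 and 0.228), nor Mcm2 without Ang(1-7) 1 (0.194).

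Of 76 cytosolic ribosomal protein genes, which supply the ribosome, 33 fell, 0 rose and 43 did not pass without Ang(1-7) 2, with a median of −0.23 in both fits, and 0 passed with all 6. Rpl8 was at 6239, 5836 and 6043 CPM in the controls and 4918, 3097 and 4524 in Ang(1-7) 1 to 3 (−0.36 ± 0.05, adjusted p = 0.000174 without Ang(1-7) 2). Rpl41, the shortest of these proteins, was at 5207, 4494 and 5112 against 3938, 6829 and 3532 CPM, so that Ang(1-7) 2 lay above all controls while Ang(1-7) 1 and 3 lay below them. The treated libraries all lay below the controls for 32 of the 76, beside 13.3% of all genes tested. The nuclear genes of the respiratory chain and ATP synthase had 13 of 74 lower, 0 higher and 61 that did not pass without Ang(1-7) 2 (median −0.20), and 0 passed with all 6, among them Atp5a1 and Atp5b (each −0.30 ± 0.05) for ATP synthase and Ndufb7 of complex I (−0.46 ± 0.10, adjusted p = 0.0533 without Ang(1-7) 3 too). With Ang(1-7) 1 as the sole peptide library fewer genes were called, both in these lists and over all genes tested. Without Ang(1-7) 2 and control 1, 19 ribosomal protein and 3 respiratory chain genes were called. That fit called 288 genes in all, 143 of them lower. Beside these, 3 of 74 respiratory chain genes says little about a fall of that list. Mitochondrial ribosomal proteins had 7 of 65 lower and 0 higher (median −0.21), among them Mrpl12 (−0.42 ± 0.08), Mrps7 (−0.40 ± 0.08) and Mrpl28 (−0.44 ± 0.10). Mrps7 and Mrpl28 were not called without Ang(1-7) 3 too (adjusted p = 0.0902 and 0.0894). Proteasome subunits had 6 of 38 lower and 1 higher. Translation factors and aminoacyl-tRNA synthetases had 10 of 61 lower and 2 higher, among the lower ones the elongation factor gene Eef2 (−0.19 ± 0.04).

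Transcript length moved with the direction of change. Genes called lower without Ang(1-7) 2 had a median transcript length of 1375 bases and genes called higher 3988, against 2496 over all genes tested. With genes split into 10 classes by length, from the shortest class to the longest, the median log2 change went from −0.12 to 0.19 without Ang(1-7) 2 and from −0.14 to 0.20 with it. In the separate comparison of PA/OA with the same controls it went from −0.12 to 0.16. With a correction for length and GC content, 167 of 6054 genes were called higher and 454 lower without Ang(1-7) 2, in place of 320 and 304, and 405 were called in both fits. The median log2 change over all genes went from 0.01 to −0.07 with it. The changes thus shifted downward as a whole, and the larger number of lower genes is to be read beside that shift. The called genes were then 46 of 64 histones (median −0.50), 31 of 76 ribosomal proteins, 12 of 74 respiratory chain genes and 10 of 27 of the chemokine list, with the directions as before. Of the other genes named as called without Ang(1-7) 2, the correction ended the call of Lnpep (log2 change 0.0289), Itgb1 (−0.00533), Klf6 (0.078), Dnajc3 (0.12), Lamc1 (0.12), Stard4 (0.28), Junb (−0.0729), Krt18 (−0.13) and Nfkbil1 (−1.84). Itga2 (0.26), Hsp90b1 (0.18) and Hist1h4k (−0.44) stayed called with smaller changes, and Scd1 (−0.42), Scd2 (−0.36) and Cdk1 (−0.42) with larger ones. With all 6 libraries and the correction, 15 genes were called, of which 10 were among the 15 without it. Hpx, Nt5e, Ptgs2 and Tnip3 were among those not called then.

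**Figure D5:**
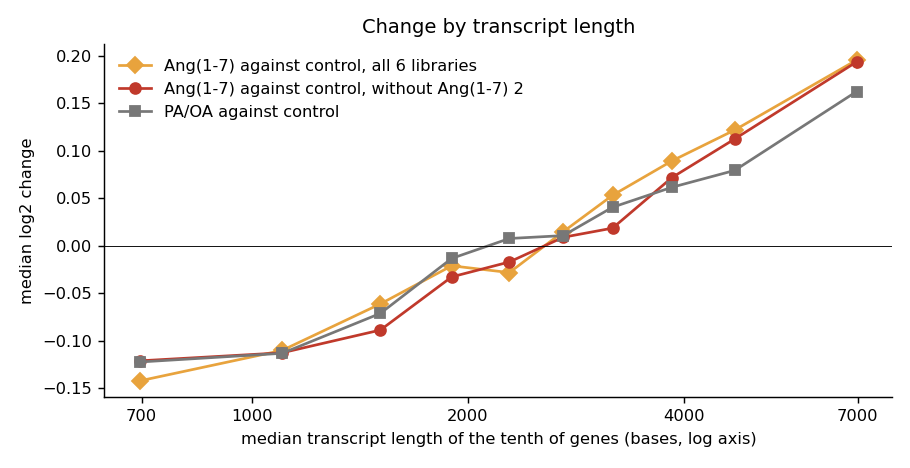
Median log2 change (vertical axis) of 10 classes of genes, split by length, against their median transcript length in bases (log axis), for Ang(1-7) against control with all 6 libraries (orange), without Ang(1-7) 2 (red) and for PA/OA against control (grey). All 3 lines run from below 0 in short transcripts to above 0 in long ones.

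Keratin genes and the hepatocyte gene Ttr were among the other falls, while the median over 11 hepatocyte identity genes was 0.06 without Ang(1-7) 2. Krt19, a biliary and progenitor cell keratin, was at 1005, 844 and 924 CPM in the controls and 663, 357 and 598 in the treated libraries (−0.55 ± 0.08, adjusted p = 0.000170 without Ang(1-7) 2). Ang(1-7) 2 was the lowest library. Krt7 (−0.28 ± 0.06), the hepatocyte keratins Krt8 (−0.21 ± 0.05) and Krt18 (−0.17 ± 0.04), and Vim also fell without Ang(1-7) 2, which makes 5 of 10 measured filament genes lower and 0 higher. Krt7, Krt8 and Krt18 were not called without Ang(1-7) 3 too (adjusted p = 0.0770, 0.132 and 0.175). Vim, vimentin, was at 7368 to 8401 CPM in the controls, 6226 and 6316 in Ang(1-7) 1 and 3, and 9893 in Ang(1-7) 2. Ttr, the thyroid hormone carrier transthyretin, was at 15.6, 8.65 and 15.9 CPM in the controls and 3.07, 12.9 and 6.37 in the treated libraries. Its fall was called without Ang(1-7) 2 (−1.50 ± 0.38, adjusted p = 0.0162), but not when Ang(1-7) 1 was left out too (0.205). Aqp1, a water channel gene, went from 28.7 ± 9.45 to 11.4 ± 3.27 CPM (−1.17 ± 0.27 without Ang(1-7) 2), and was likewise not called without Ang(1-7) 1 (0.138). Of 11 hepatocyte identity genes, Trf rose and Ttr fell without Ang(1-7) 2, beside 5.22% and 4.96% of all genes tested. Alb, at 5.94 and 4.49 CPM in Ang(1-7) 1 and 3, at 20.2 in Ang(1-7) 2 and at 6.57 to 11.99 in the controls, did not pass. Nfkbil1 had 59, 96 and 149 counts in controls 1 to 3 against 21, 11 and 26 in Ang(1-7) 1 to 3. Its treated mean lay under the lowest mean of any listed transcript (59.5 counts). It could therefore be listed only through the controls and had to be lower. Nfkbil1 (−2.09 ± 0.63, a description for that reason), the zinc finger gene Zfp141 (−1.35 ± 0.41), Mrpl57 (−1.06 ± 0.27) and S100a7a (−0.88 ± 0.25) were also called lower without Ang(1-7) 2. The highest adjusted p with a further library left out was 0.256, 0.351 and 0.170 for the first 3 of these, each without Ang(1-7) 1, and 0.365 for S100a7a without Ang(1-7) 3.

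Of 8 measured genes of the renin-angiotensin system, 2 were called without Ang(1-7) 2, beside 10.2% of all genes tested. Lnpep, the angiotensin IV binding aminopeptidase, rose (0.36 ± 0.10, adjusted p = 0.0241, but 0.905 with the length and GC correction) and Thop1, a peptidase that can form Ang(1-7), fell (−0.40 ± 0.08, adjusted p = 0.00348) without Ang(1-7) 2, and 0 passed with all 6 libraries. Thop1 was at 364, 347 and 342 CPM in the controls and 283, 324 and 247 in Ang(1-7) 1 to 3, below the controls in each. Lnpep was at 190.1, 166 and 195 against 255, 226 and 216 CPM. Agt, the angiotensinogen gene, did not pass (1.77, 6.27 and 2.41 against 4.52, 14.3 and 6.85 CPM, 1.29 ± 0.60). Prep, another Ang(1-7) forming peptidase (−0.24 ± 0.13), and the prorenin receptor gene Atp6ap2 (0.02 ± 0.09) did not pass either. Lnpep was not called when Ang(1-7) 1 was left out as well (adjusted p = 0.340), nor Thop1 when Ang(1-7) 3 was (0.104).

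Since both treated groups shared the fatty acids, the test that bears on the peptide is Ang(1-7) against PA/OA. It called 0 of 9261 genes (0%) in edgeR, with 236 (2.55%) at an unadjusted p under 0.05 and a lowest adjusted p of 0.965, and 0 of 9662 without Ang(1-7) 2 (346 unadjusted, 3.58%, lowest 0.225). DESeq2 called 3, limma-voom 0. The estimated biological coefficient of variation was 44.3% with all 6 libraries of this pair, against 22.4% for PA/OA against control. A count of 0 in edgeR thus does not show that the peptide changed nothing. The comparison of PA/OA with the same controls called 5.05% of genes (2.82% higher and 2.24% lower), and because both use these controls only the values of each are set side by side. In Ang(1-7) and in PA/OA, respectively, the log2 changes from control were 2.69 and 2.76 for Cxcl5, 2.34 and 2.23 for C3, 2.14 and 2.11 for Cxcl3, 1.46 and 1.32 for Aldh1a1, 1.07 and 0.998 for Apob, and 0.78 and 0.85 for Hpx. Of the 15 genes, 14 were called in PA/OA too, but the shared controls favour such an overlap, so this count is a description. The differences between Ang(1-7) and PA/OA for the 15 ran from −0.17 to 0.94.

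S100a11, a calcium-binding protein gene, was the gene not called in PA/OA and the one at 0.94. It was at 73.4, 97.3 and 89.3 CPM in the controls and at 168, 228 and 259.9 in Ang(1-7) 1 to 3, all of them above every control, with a log2 change of 1.34 ± 0.18 (adjusted p = 0.0363). From control to PA/OA the change was 0.41 ± 0.12 (adjusted p = 0.0528). Between Ang(1-7) and PA/OA it was 0.94 ± 0.18, with an unadjusted p of 0.00046 in edgeR and an adjusted p of 0.965, and 0.92 without Ang(1-7) 2. DESeq2 called it (0.96, adjusted p = 0.0175), as did edgeR without Ang(1-7) 1 (1.11, adjusted p = 0.0374). In that last fit 18 genes were called, among them Gfap, Nefl, Nefm and Tubb3, the markers of neurons and glia that Ang(1-7) 2 and 3 carry. S100a11 was higher in those 2 libraries than in Ang(1-7) 1, and the part of the neural RNA in its value was not tested. The other genes that DESeq2 called were Gfap and Nsun3, an RNA methyltransferase gene (1.03 ± 0.22 in edgeR, adjusted p = 0.965).

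Differences of histone genes between the treated groups were negative in the median (−0.26 over the 64, both with and without Ang(1-7) 2). The median from control to PA/OA was −0.36, beside −0.64 from control to Ang(1-7). Hist1h2ao differed by −1.003 ± 0.27 between Ang(1-7) and PA/OA (edgeR unadjusted p = 0.00475, adjusted p = 0.965), and none of the 64 passed edgeR's test with or without Ang(1-7) 2. With the replicate number as a block and Ang(1-7) 2 left out, edgeR called 19 genes, 6 of them histone genes that were lower in Ang(1-7). Hist1h2ao was among them (−1.20, adjusted p = 3.74e-05). Whether the numbers pair the samples is not known.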

How the data were processed

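Gene counts were deposited by the authors as a table for each pair of groups. Per the submitters' processing notes, bcl2fastq, HISAT2 2.2.5 and HTSeq 0.11.2 were used. Those notes name the human build hg19, although the transcripts are mouse, and the handling of strand and of reads with several matches is not given in the sources used here. The deposited fold changes and p-values were not used.

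Counts were summed by gene. The main test was edgeR 4.0.16 (R 4.3.3) with trimmed mean scaling, its expression filter and the quasi-likelihood test, at an adjusted p of 0.05 over all genes tested. It was run with all 6 libraries and without Ang(1-7) 2. Of 6141 genes 7 were not tested, which were Ckb, Ermn, Kcna1, Nap1l5, Nefh, Nefl and Nefm. Log2 changes carry their SE and CPM means their SD. Alternatives were DESeq2 1.42.0 and its size factors, limma 3.58.1 voom with quality weights, no filter, curated transcripts, each library left out, the replicate number as a block and, chosen after seeing the data, a correction for length and GC content by splines of 4 degrees of freedom. The fits were tested on simulated counts in which no library stood apart as Ang(1-7) 2 did. That test does not bear on how the fits handle such a library. Transcript lengths came from GENCODE M21 and promoters from RefSeq.

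Genes, lists and members were chosen with earlier results of these data known. Named by rule were the largest called changes whose groups did not overlap, up to 3 genes of lowest p of each list with a called member, and a fixed set of lipid, acute phase and angiotensin genes. Chosen after their values were seen were Ccl2, Ptgs2, Slfn2, Hp, Rela, Nfkbia, Tnfaip3, Vcam1, Sod2, Ftl1, Tfrc, Ugt1a6a, Cyp2s1, Ucp2, Hadha, Plin3, Hilpda, Dgat2, Itgb1, Ankrd1, Lamc1, Calr, Hspa5, Fosl1, Junb, Krt8, Krt18 and Atp6ap2. A gene called with all 6 libraries is not reported here.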

Additional observations from a re-analysis of the deposited data

How the results depend on the processing

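With all 6 libraries, 15 genes were called by edgeR against control. DESeq2 called 244, limma-voom with quality weights 608, and curated transcripts alone gave 27, and each of these 3 included all 15. Leaving out 1 library gave 4 to 624. Without Ang(1-7) 2 the count was 624, and leaving out a further library gave 229 to 583. Ang(1-7) against PA/OA gave 0 genes, 3 with DESeq2 and 0 to 18 with a library left out. Same-numbered samples did not deviate together (correlations 0.05, 0.02 and −0.03), and the numbers were not taken as pairs in the main test. With 3 libraries per group and Ang(1-7) 2 far from the others, such correlations cannot exclude pairs. The replicate block gave 10 genes with all 6 libraries, 825 without Ang(1-7) 2, and 0 and 19 for Ang(1-7) against PA/OA with all 6 and without Ang(1-7) 2. Over named genes and settings, 2930 values kept direction and side of the threshold, 338 passed it newly, 238 no longer passed and 82 changed sign. The causes were not tested. Genes near the low end of the table rest on few counts, and the fits with a single Ang(1-7) library assume that it varies like the controls.

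The sign changes follow as log2 changes. With all 6 libraries, limma-voom gave −0.77 for Alb, 0.000413 for Ftl1, 0.0869 for H2-D1, 0.23 for Hspa5 and −0.25 for Prdx3. The replicate block gave −0.15 for Alb, and with Ang(1-7) 2 also left out −0.78 for Alb, −0.0491 for Ddit3, 0.0334 for Ftl1, 0.0806 for H2-D1, 0.36 for Hspa5, −0.28 for Prdx3, −0.00433 for Sod2 and −0.0142 for Vcam1. Curated transcripts gave −0.79 for Ddit3. The length and GC correction gave −0.043 for Atp6ap2, 0.0994 for Ftl1, 0.0311 for H2-D1, 0.061 for Krt18, 0.0674 for Krt8, −0.043 for Lamp2, 0.23 for Mif, 0.0636 for Psmb3, 0.0711 for Psmd3, 0.26 for Rpl41, −0.13 for Sod2 and 0.0224 for Vim. Leaving out 1 library gave −0.83 to 0.50 for Alb, −0.64 to 0.000474 for Apoc2, −0.0055 to 0.0627 for Atp6ap2, −0.0681 to 0.18 for Ddit3, −0.25 to 0.0169 for Ftl1, −0.28 to 0.12 for H2-D1, −0.15 to 0.0491 for Hadha, −0.34 to 0.23 for Hspa5, −0.066 to 0.27 for Lamp2, −0.12 to 0.00179 for Mbp, −0.27 to 0.27 for Prdx3, −0.40 to 0.13 for Rpl41 and −0.32 to 0.0417 for Vim.

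Without Ang(1-7) 2, Apoc2 was −0.00246 with DESeq2 size factors, −0.0025 with DESeq2 and −0.036 with the replicate block. With the replicate block Ddit3 was −0.0491, Sod2 −0.00433 and Vcam1 −0.0142. With curated transcripts Ddit3 was −0.51, Plin3 0.00932 and Stard4 −0.0757. The length and GC correction gave −0.11 for Atp6ap2, −0.00458 for Elovl6, −0.00533 for Itgb1, −0.24 for Sod2 and −0.13 for Vcam1. Leaving out a further library gave −0.0529 to 0.0713 for Apoc2, −0.0138 to 0.0579 for Atp6ap2, −0.0469 to 0.19 for Ddit3, −0.0236 to 0.0563 for Ftl1, −0.38 to 1.46 for Gbp2, −0.0147 to 0.25 for H2-D1, −0.00132 to 0.60 for Hmgcs1, −0.0375 to 0.54 for Hspa5, −0.0824 to 0.80 for Lcat, −0.0811 to 0.0522 for Mbp, −0.0405 to 0.0382 for Plin3, −0.0117 to 0.0402 for Sod2 and −0.0509 to 0.11 for Vcam1.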
